A study of Mus musculus with 11 samples.

Results

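The 5 samples of mouse thymus or thymic lymphoma labelled as lacking Dnmt3b were compared with the 6 that keep the gene. The genes described are those whose 5 values did not overlap the 6 values: the lowest level of one side lay above the highest of the other. This held for 206 of the 21789 probe sets with a single gene symbol (0.945%), or 198 of 19938 genes. In 74 probe sets (72 genes, 0.34% of probe sets) all deficient samples were higher, and in 132 (126 genes, 0.606%) all were lower. Over all 28939 probe sets tested, with or without a symbol, it held for 0.902%, 0.349% higher and 0.553% lower. Since this choice used the measured values, the separation itself is a description, and the number and size of the differences among the chosen genes are not evidence for it.

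All mice were FVB, carried the EμSR-tTA transgene (a tetracycline-controlled activator driven by an enhancer active in blood cells) and the Rosa26LOXPEGFP reporter, and gave 1 array per sample. Of the proficient samples, 3 were normal thymocytes of 24-day-old mice with Teto-Cre and Dnmt3b+/+ but no MYC transgene, and 3 were lymphomas with Teto-MYC and floxed Dnmt3b (Dnmt3bF/F) but no Cre, called wild-type. Of the deficient samples, 3 were lymphomas and 2 were thymocytes taken at 24 days, before tumors; both carried Teto-MYC, Teto-Cre and the label Dnmt3b-/-. Every deficient sample therefore has MYC and Cre together, a pairing that neither proficient group has. At 24 days the Dnmt3b genotype and the MYC transgene cannot be told apart, and in lymphomas Dnmt3b and Cre cannot be told apart. EGFP-positive cells were sorted from pre-tumor thymi, tumors were used whole, and for normal thymocytes the labels do not settle it.

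Dnmt3b places methyl groups on CpG dinucleotides that carry none, Dnmt3a does the same at partly different sites, and Dnmt1 copies the pattern to the new strand at cell division. Methylation at CpG-rich gene starts goes with silencing, and germline genes are among those known to be held off this way. In T cell development, signals from the T cell receptor steer thymocytes through selection, while MYC drives growth, ribosome production and division.

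Values are log2 levels, with a lower limit of 3.32 (log2 of 10) in the deposited table; a level at this floor has no measured value below it. The deficient-minus-proficient difference is the mean of the deficient lymphoma and pre-tumor group means minus the mean of the wild-type lymphoma and normal group means, so that each group counts alike. It is made of a lymphoma difference (deficient minus wild-type) and a 24-day difference (pre-tumor minus normal), which share no samples. Adjusted p-values are Benjamini-Hochberg values from limma over 28939 probe sets, with a threshold of 0.05, and SE is the standard error of the difference. For the separated genes these p-values, and whether they pass without a sample, use the same values that chose the genes. They are therefore not independent support for single genes. Arrays of a group correlated with r between 0.973 and 0.991, array medians lay between 4.55 and 4.62, and 23.6% to 25.7% of each array's values were at the floor.

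Start-site windows are shown for 4 of the separated genes, because the enzyme acts on CpG, with a window of more and one of fewer CpG in each direction. Ment and Sycp1 were higher in all deficient samples, Dusp6 and Cd5 lower. Each runs from 250 bases before to 50 after the gene's start, read 5′ to 3′ on the gene's strand, from RefSeq (GRCm38.p6), with CpG in capitals. The windows are Ment at chr3:95241060-95241359 (minus strand), Sycp1 at chr3:102936051-102936350 (minus), Dusp6 at chr10:99262981-99263280 (plus) and Cd5 at chr19:10738925-10739224 (minus).
Ment: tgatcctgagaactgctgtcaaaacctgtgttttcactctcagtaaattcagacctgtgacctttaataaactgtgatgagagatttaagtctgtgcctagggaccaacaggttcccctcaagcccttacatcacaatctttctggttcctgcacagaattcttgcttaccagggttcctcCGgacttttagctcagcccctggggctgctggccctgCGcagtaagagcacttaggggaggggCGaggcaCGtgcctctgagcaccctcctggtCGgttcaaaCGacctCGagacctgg
Sycp1: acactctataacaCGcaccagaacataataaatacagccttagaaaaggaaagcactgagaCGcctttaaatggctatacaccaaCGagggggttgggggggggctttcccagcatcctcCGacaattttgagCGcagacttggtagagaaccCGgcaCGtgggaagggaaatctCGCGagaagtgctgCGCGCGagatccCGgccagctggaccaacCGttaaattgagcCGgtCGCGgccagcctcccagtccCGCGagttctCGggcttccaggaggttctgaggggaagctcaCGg
Dusp6: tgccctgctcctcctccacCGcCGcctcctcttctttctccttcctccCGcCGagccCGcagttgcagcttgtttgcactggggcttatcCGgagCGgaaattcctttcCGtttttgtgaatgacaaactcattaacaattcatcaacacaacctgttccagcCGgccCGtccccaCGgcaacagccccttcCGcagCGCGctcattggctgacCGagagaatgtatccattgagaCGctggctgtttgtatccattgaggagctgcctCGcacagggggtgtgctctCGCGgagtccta
Cd5: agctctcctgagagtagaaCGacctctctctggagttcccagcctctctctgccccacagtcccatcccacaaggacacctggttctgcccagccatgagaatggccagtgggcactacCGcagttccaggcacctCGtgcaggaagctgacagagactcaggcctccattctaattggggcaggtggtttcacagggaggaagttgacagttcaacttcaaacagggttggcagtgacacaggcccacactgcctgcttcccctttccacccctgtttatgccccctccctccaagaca

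These windows hold 7 CpG for Ment, 21 for Sycp1, 19 for Dusp6 and 3 for Cd5. Over all genes with a window the median was 16 and the quartiles 5 and 26, so Cd5 lies below the lower quartile and the other 3 between the quartiles. The ratio of observed CpG to that given by the window's own C and G content was 0.342, 0.874, 0.802 and 0.126. Methylation was not measured in these files.

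The DNA methyltransferases themselves came first, as a check of the labels. Dnmt3b read 5.22, 5.31 and 5.30 in the normal thymocytes, 5.36, 5.59 and 5.70 in the wild-type lymphomas, 5.26, 5.49 and 5.40 in deficient lymphomas, and 5.07 and 5.24 in pre-tumor thymocytes. The sides overlap, and the plain difference of 5 against 6 samples, -0.12, gave p = 0.286 in a two-sided exact permutation test (adjusted over 3 genes 0.398). The sources used here do not give where this probe set lies relative to the deletion, so its level does not check the genotype.

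Dnmt1 was higher in all 5 deficient samples, by a small amount. It read 9.37, 9.47 and 9.42 in the normal thymocytes, 9.57, 9.48 and 9.61 in the wild-type lymphomas, 9.88, 9.74 and 9.68 in deficient lymphomas, and 9.64 and 9.68 in pre-tumor thymocytes. The sides are 0.029 apart, and the separation was gone after quantile normalization. The difference of 0.22 (SE 0.04, 1.17-fold) passed limma (adjusted p = 0.0204), but not without pre-tumor replicate 2 (0.0894). Dnmt3a overlapped fully between the sides, from 6.79 to 7.65 in deficient and from 6.69 to 8.07 in proficient samples, with a difference of -0.21 (adjusted p = 0.769).

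Over the whole table, 2901 probe sets passed in the deficient-minus-proficient comparison (10%), 1486 higher (5.13%) and 1415 lower (4.89%). The 24-day comparison alone called 5662 (19.6%), and the lymphoma comparison alone called 2 (0.00691%), AI506816 and Ifnz, with 1823 at an unadjusted p under 0.05. In a 2-group fit that takes the 5 and the 6 samples as single groups, 2 probe sets passed (0.00691%): AI506816 and 1 with no gene symbol, while 3210 had an unadjusted p under 0.05. The 2 fits differ in what they count as spread, since the second also counts the difference between lymphoma and 24-day samples within a side. The count of 2901 was 802 without pre-tumor replicate 2, 1304 without wild-type replicate 2, 1662 without deficient lymphoma replicate 2, and 1827 and 1725 without normal replicates 1 and 2.

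Of the separated probe sets, 62 of the 74 higher and 86 of the 132 lower ones were called in the deficient-minus-proficient comparison, beside 5.13% and 4.89% of all tested, a count the choice of genes itself raises. In the 24-day comparison 53 and 71 were called, beside 9.69% higher and 9.88% lower of all. The lymphoma and 24-day differences themselves differed in 9 and 25, beside 8.23% of all probe sets, 4.06% with the lymphoma value higher and 4.17% with it lower. In the lymphoma comparison 1 and 1 were called, beside 0.00346% in each direction. An unadjusted p under 0.05 was found there in 53 and 93, beside 1823 of all 28939 probe sets. The choice of genes raises the counts of the lymphoma and 24-day comparisons too, so they are not support. The median difference of the higher group was 0.40 in lymphomas and 0.78 at 24 days, and that of the lower group was -0.40 and -0.63. Over all probe sets with 1 symbol these medians were 0 and -0.05. The 24-day difference was the larger of the pair in 57 of 74 and 91 of 132. This count was not made over all probe sets, so it cannot be read as particular to the separated ones. Over the whole table too, far more were called at 24 days (19.6%) than in lymphomas (0.00691%).

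**Figure D1:**
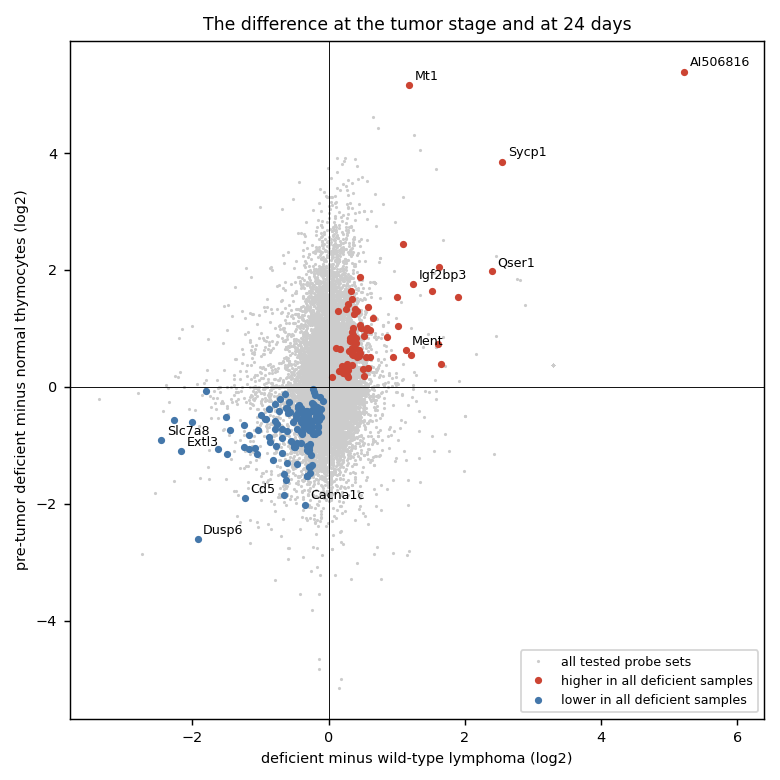
Each point is a probe set, with the log2 difference between deficient and wild-type lymphomas on the horizontal axis and that between pre-tumor deficient and normal thymocytes on the vertical axis. Grey points are all 28939 tested, red and blue the 74 and 132 separated ones, which by their choice lie in the upper right and lower left. AI506816 stands far from the others at 5.22 and 5.40, while Mt1 differs by 5.17 at 24 days and by 1.18 in lymphomas.

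The proficient sample nearest the deficient side was a wild-type lymphoma in 58 of the 74 higher and 103 of the 132 lower probe sets. By their means, wild-type lymphomas lay on the deficient side of normal thymocytes in 57 of 74 and 104 of 132, and this difference was called in 26 and 37, beside 19.9% of all probe sets, 9.58% higher and 10.3% lower. It was called in the opposite direction in 1 and 1, and not called in 47 and 94. The counts by nearest sample and by means were not made over all probe sets, so they cannot be read as high or low. Between deficient lymphomas and pre-tumor thymocytes 0 of the 206 were called, beside 20 of all probe sets (0.0691%, with 0.0311% higher and 0.038% lower). An unadjusted p under 0.05 was found in 20 of the 206. That count was not made over all probe sets, so it cannot be read as high or low. These comparisons within a side share samples with the one that chose the genes.

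Most separations were narrow. The gap between the sides had a median of 0.073 among the higher and 0.050 among the lower probe sets, and only 4 and 1 had a gap of at least 0.5. Just inside the rule among the higher genes were Timm23 (gap 0.000589), Ccdc59 (0.00187) and Ubap2l (0.00362), and just outside Slc22a16, Erich6b and Mri1, which missed it with gaps of -0.000502, -0.000961 and -0.00103. Among the lower genes, Tpt1 (0.000214), Elane (0.000315) and Tsr3 (0.000714) were just inside, and Pilrb2, Nav3 and Cpne9 just outside, with gaps of -0.000312, -0.000323 and -0.000333. In Erich6b and Pilrb2 the sides meet at the floor of 3.32, so their small gaps do not show a near separation. Erich6b was not higher in deficient samples (-0.0002). After both quantile normalization and centring on array medians, each applied alone, 131 of the 206 remained separated. Tpt1 and Scarna17 have near-identical copies elsewhere in the genome, so their values are uncertain.

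**Figure D2:**
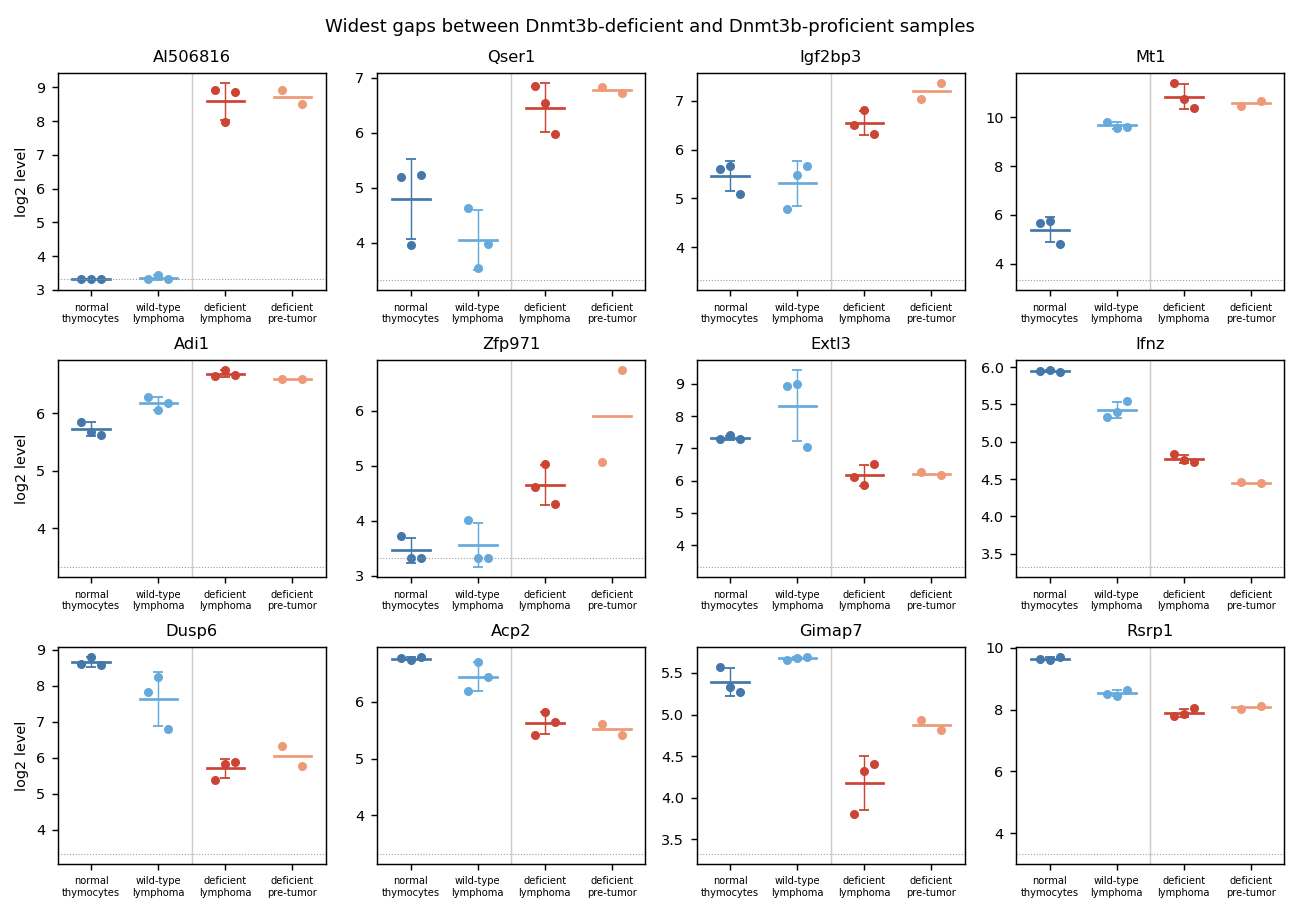
Log2 levels of the 6 genes with the widest gap in each direction, 1 point per sample, with the group mean as a bar and the SD as whiskers for groups of 3; pre-tumor thymocytes have 2 samples and no whisker. The dotted line is the floor of 3.32 and the vertical line parts proficient (left) from deficient samples (right); vertical scales differ between panels.

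AI506816, whose name is that of a cloned sequence and says nothing of function, had the widest separation. It was at the floor in all 3 normal thymocytes and in wild-type replicates 1 and 3, and at 3.45 in replicate 2. It read 8.93, 7.97 and 8.87 in deficient lymphomas and 8.91 and 8.52 in pre-tumor thymocytes. The sides are 4.51 apart, and the difference is at least 5.31 (SE 0.18, 39.7-fold, adjusted p = 4.67e-05). The samples at the floor add no spread to this SE, which may therefore be too small. AI506816 passed in the lymphoma comparison (at least 5.22, 0.00171), in the 24-day comparison (at least 5.40, 0.000426) and in the 2-group fit (1.58e-06), and without any single sample. The probe sets beside it by ID number that have a chromosome lie on chromosome 1, while RefSeq places AI506816 on chromosome 5, so which transcript it reads is uncertain.

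Sycp1 and Bmpr1a were at the floor in all 6 proficient samples. Sycp1, which forms the cross-links of the synaptonemal complex between paired chromosomes in meiosis, read 7.19, 7.03 and 3.41 in deficient lymphomas and 6.52 and 7.83 in pre-tumor thymocytes, so deficient replicate 3 was just above the floor and the other 4 well above it. Its difference of at least 3.20 (SE 0.71, adjusted p = 0.033) stayed past the threshold without deficient lymphoma replicate 3 (0.00197) or pre-tumor replicate 1 (0.0459), and missed it without any other single sample (0.0573 to 0.14). Bmpr1a, a receptor for bone morphogenetic proteins, read 5.28, 3.57 and 4.14 in deficient lymphomas and 4.71 and 4.99 in pre-tumor thymocytes. Its difference of at least 1.27 (SE 0.28, adjusted p = 0.0328) held without any one deficient lymphoma (0.00785 to 0.0476) and missed the threshold without any other single sample (0.0564 to 0.133). For Sycp1 and Bmpr1a the floor values of the 6 proficient samples add no spread to the SE, which may therefore be too small. Leaving out any 1 of these 6 left the differences at 3.20 and 1.27. Only the spread estimate and the adjustment changed there. The gene lists here and below were chosen with earlier results of these data known, so their shares are descriptions and not tests. Of 40 measured germline and meiotic genes, 16 were at the floor on every array. Sycp1 was the 1 that separated (2.5%), beside 0.356% separated higher and 0.612% lower over all genes. In the deficient-minus-proficient comparison it rose and Spo11, which makes the DNA breaks that start meiotic recombination, fell by 1.36 (adjusted p = 0.012). That is 2.5% of the list in each direction, below the 5.36% and 5.9% of all genes that rose and fell.

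Qser1, Igf2bp3 and Ment were higher in all deficient samples, with the mean of the wild-type lymphomas below that of the normal thymocytes. Samples of these proficient groups overlap in Qser1 and Igf2bp3, and not in Ment. Qser1, a protein reported in human embryonic stem cells to guard DNA from new methylation together with TET1, read 5.20, 3.96 and 5.24 in the normal thymocytes, 4.64, 3.55 and 3.98 in the wild-type lymphomas, 6.86, 6.54 and 5.98 in deficient lymphomas, and 6.83 and 6.72 in pre-tumor thymocytes. The sides are 0.74 apart, and it rose by 2.19 (SE 0.32, 4.56-fold, adjusted p = 0.0107); a second Qser1 probe set also separated. Igf2bp3, an RNA-binding protein made mainly in embryos and tumors, read 5.60, 5.65 and 5.09, then 4.78, 5.48 and 5.66, then 6.51, 6.81 and 6.32, and 7.04 and 7.36, in the same order. It rose by 1.50 (SE 0.20, adjusted p = 0.00824).

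Ment, a gene named for its methylation in the normal thymocytes, read 4.47, 4.80 and 4.44 in the normal thymocytes, 3.86, 4.04 and 4.07 in the wild-type lymphomas, 4.91, 5.28 and 5.20 in deficient lymphomas, and 5.19 and 5.20 in pre-tumor thymocytes. Normal replicate 2 came within 0.111 of the deficient side, and the wild-type lymphomas were the lowest samples. The difference was 0.88 (SE 0.10, 1.85-fold, adjusted p = 0.00446). Without each sample in turn the calls of Qser1 (0.0125 to 0.0456), Igf2bp3 (0.011 to 0.0399) and Ment (0.00413 to 0.0223) all held. None of the 3 passed in the 2-group fit (0.199, 0.199 and 0.412).

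Mt1, Rdx, Adi1 and Bid were graded across the groups, with wild-type lymphomas above normal thymocytes and deficient samples above both. Mt1, a metallothionein that binds zinc and copper, read 5.66, 5.74 and 4.79 in the normal thymocytes and 9.81, 9.57 and 9.60 in the wild-type lymphomas. It read 11.40, 10.76 and 10.37 in deficient lymphomas and 10.46 and 10.67 in pre-tumor thymocytes. Its difference was 3.17 (SE 0.24, 9.02-fold, adjusted p = 0.00206), of which the lymphoma part was 1.18 (0.604) and the 24-day part 5.17 (0.000921); between wild-type lymphomas and normal thymocytes it differed by 4.26 (0.000437). Rdx, radixin, which ties the cell membrane to actin, rose by 1.17 (SE 0.16, adjusted p = 0.0087), and Adi1, an enzyme of methionine salvage, by 0.69 (SE 0.06, 0.00229). Bid, which links death receptors to the mitochondrial death pathway, rose by 0.60 (SE 0.09, 0.0127), a call missed without pre-tumor replicate 2 (0.0568). Of 14 measured BCL2 family genes it was the 1 that separated (7.14%, beside 0.356% of all genes separated higher). It was also the 1 called higher (7.14%, beside 5.36% of all genes), while 4 fell (28.6%, beside 5.9%). The family's median was 0.07 in lymphomas and -0.51 at 24 days.

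Gsta4, a glutathione transferase for lipid peroxidation products, read 6.62, 6.50 and 6.24 in the normal thymocytes, 6.63, 7.27 and 6.08 in the wild-type lymphomas, 9.60, 7.80 and 7.47 in deficient lymphomas, and 8.55 and 8.45 in pre-tumor thymocytes. Deficient lymphoma replicate 1 was the highest sample. Its difference of 1.84 (SE 0.41, adjusted p = 0.0346) held without deficient lymphoma replicates 1 (0.0201) or 3 (0.0267) and missed the threshold without any other single sample (0.0547 to 0.122). Of 18 measured metallothionein, glutathione and xenobiotic genes, Mt1 and Gsta4 separated (11.1%, beside 0.356% of all genes separated higher). As with the other lists, this one was chosen with earlier results known, and its shares are a description. In the deficient-minus-proficient comparison 5 rose (27.8%, beside 5.36% of all genes) and 0 fell (beside 5.9%); the 5 are these 2, Mt2 (2.65), Mgst2 (1.26) and Gsto1 (1.03).

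The remaining large positive differences were in genes of varied function. Apobec2, a muscle-enriched relative of the cytidine deaminases, lay between 3.93 and 4.63 in proficient and between 4.90 and 6.33 in deficient samples, a difference of 1.58 (SE 0.29, adjusted p = 0.0199) lost without wild-type replicate 2 (0.0519) or pre-tumor replicate 2 (0.0892). Zfp971, a zinc finger gene with 4 of 6 proficient samples at the floor, differed by at least 1.77 (SE 0.32, 0.0195; 0.0533 without wild-type replicate 2). Gphn, gephyrin, which anchors inhibitory neurotransmitter receptors, differed by 1.17 (SE 0.23, 0.0221) and missed the threshold without pre-tumor replicate 2 (0.0967), normal replicate 2 (0.0538) or deficient lymphoma replicate 2 (0.052). Rpp25, a subunit of RNase P, was 6.88 in deficient lymphoma replicate 1 and 5.05 to 5.45 in the other 4; its difference of 1.03 did not pass (0.106), and passed without that replicate (0.0117).

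**Figure D3:**
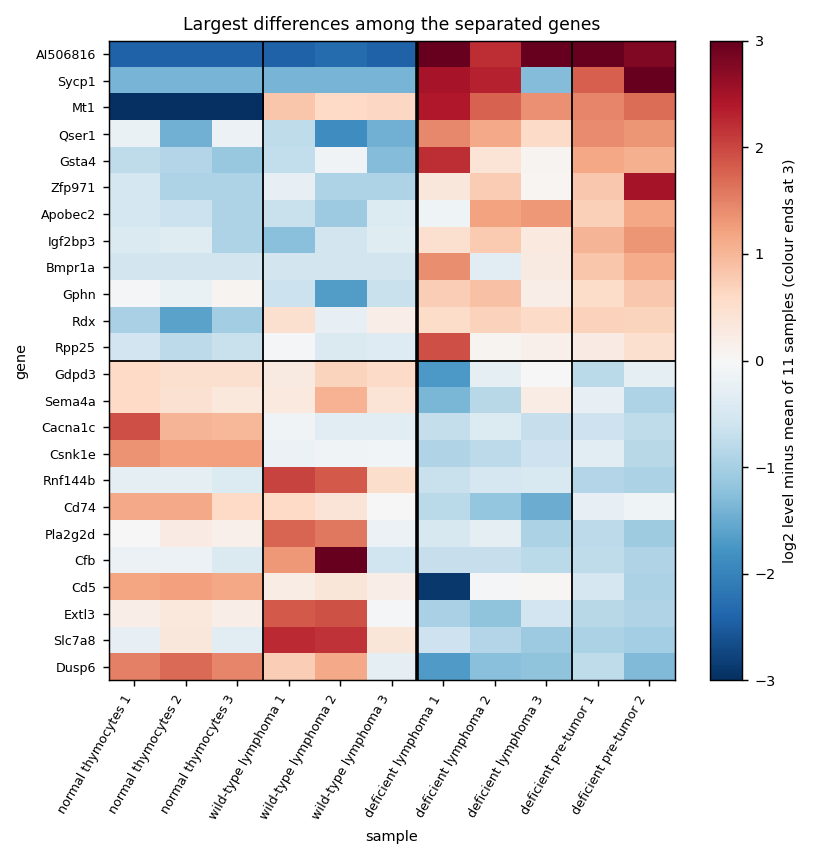
Rows are the 12 largest positive and 12 largest negative differences among the separated genes, columns the 11 samples in their 4 groups, and colour the log2 level minus the gene's mean over the 11 samples, ending at 3 in each direction. The thick line parts proficient from deficient samples. Single samples carry much of some rows, such as wild-type replicate 2 in Cfb, deficient lymphoma replicate 1 in Cd5 and deficient lymphoma replicate 3 in Sycp1.

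Among the lower genes, Dusp6, the phosphatase that turns off ERK and is itself induced by ERK signalling, had the largest difference. It read 8.60, 8.80 and 8.56 in the normal thymocytes, 7.83, 8.24 and 6.79 in the wild-type lymphomas, 5.39, 5.83 and 5.87 in deficient lymphomas, and 6.33 and 5.77 in pre-tumor thymocytes. Wild-type replicate 3 was the nearest proficient sample, 0.464 above the deficient side. Dusp6 fell by 2.26 (SE 0.27, 4.8-fold, adjusted p = 0.00587), and the call held without any single sample (0.003 to 0.0301).

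Some genes of T cell receptor signalling fell. Of 24 measured genes of this list, 3 separated, all lower (12.5%, beside 0.612% of all genes). In the deficient-minus-proficient comparison 7 fell (29.2%, beside 5.9% of all genes) and 0 rose (beside 5.36%). The list's median was -0.67, beside -0.01 over all genes, with -0.36 in lymphomas and -0.83 at 24 days. Zap70, the kinase that binds the activated receptor, read 8.95, 8.63 and 8.66, then 8.19, 8.28 and 8.16 in the proficient groups, and 7.63, 7.51 and 8.08, then 7.76 and 7.83 in the deficient ones. It fell by 0.71 (SE 0.11, adjusted p = 0.013; 0.0526 without pre-tumor replicate 2). The other 6 that fell include the receptor chains Cd3e, Cd3d and Cd3g (-0.55, -0.56 and -0.36), the adaptor Lat (-0.71) and the phospholipase Plcg1 (-0.84).

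Cd5, a surface protein that damps the receptor's signal, and Lcp2, the adaptor SLP-76, separated without passing the test, and in both 1 sample was far below the rest. Cd5 read 10.01, 10.05 and 9.98 in the normal thymocytes, 9.04, 9.19 and 9.03 in the wild-type lymphomas, 5.92, 8.79 and 8.87 in deficient lymphomas, and 8.33 and 7.88 in pre-tumor thymocytes. The difference of -1.57 (SE 0.54) had an adjusted p of 0.117, and 0.00315 without deficient lymphoma replicate 1. For Lcp2 the same replicate read 7.06, against 8.54 to 8.92 in the other 4; its difference of -0.74 had an adjusted p of 0.176, and 0.0179 without that replicate. The separation of Lcp2 was gone after quantile normalization.

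Gata3, a transcription factor needed for the T lineage, read 9.30, 9.16 and 9.26 in the normal thymocytes, 8.73, 8.60 and 8.49 in the wild-type lymphomas, 6.71, 7.67 and 8.30 in deficient lymphomas, and 8.20 and 7.99 in pre-tumor thymocytes. Its difference of -1.10 (SE 0.26, adjusted p = 0.0406) held without deficient lymphoma replicates 1 (0.0172) or 3 (0.0126) and missed the threshold without any other single sample (0.0708 to 0.154). The defining T cell markers as a whole were not silent on either side: their mean log2 level was 10.79 to 10.83 in the normal thymocytes, 8.82 to 9.27 in the wild-type lymphomas, 8.79 to 9.02 in deficient lymphomas and 9.43 to 9.82 in pre-tumor thymocytes, with none of 9 at the floor on any array. Of these 9, 5 fell in the deficient-minus-proficient comparison (55.6%, beside 5.9% of all genes) and 0 rose. Their median was -0.01 in lymphomas, with 4 positive and 5 negative, and -1.22 at 24 days, with all 9 negative.

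The GIMAP GTPases, which sustain lymphocyte survival, had 2 of 8 measured members separated, both lower (25%, beside 0.612% of all genes). Gimap7 read 5.58, 5.33 and 5.27 in the normal thymocytes, 5.65, 5.69 and 5.69 in the wild-type lymphomas, 3.80, 4.32 and 4.41 in deficient lymphomas, and 4.93 and 4.81 in pre-tumor thymocytes. It fell by 1.01 (SE 0.12, adjusted p = 0.00553), and the call held without any single sample (0.00159 to 0.029). Gimap9 differed by -0.49 (adjusted p = 0.064; 0.0247 without deficient lymphoma replicate 2), and its separation was gone after centring. All 8 had a negative difference in lymphomas, and 5 had one at 24 days; Gimap7 and Gimap8 fell in the deficient-minus-proficient comparison (25%, beside 5.9% of all genes).

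Ifnz, the type I interferon also called limitin, was graded from normal thymocytes (5.95, 5.96 and 5.93) through wild-type lymphomas (5.33, 5.41 and 5.54) and deficient lymphomas (4.84, 4.76 and 4.72) to pre-tumor thymocytes (4.46 and 4.45). Samples of a group lay close together and the 4 groups did not overlap. It fell by 1.07 (SE 0.04, adjusted p = 4.67e-05), with differences of -1.49 at 24 days (9.72e-05) and -0.65 in lymphomas (0.0359). The lymphoma call was missed without normal replicates 1, 2 or 3 (0.185, 0.135 and 0.179), wild-type replicate 2 (0.103), deficient lymphoma replicate 2 (0.0632) or either pre-tumor replicate (0.0915). Leaving out a normal or pre-tumor sample left the lymphoma difference at -0.65. Only the spread estimate shared by the groups and the adjustment changed there. Of 24 measured interferon-stimulated genes 0 separated and 8 fell (33.3%, beside 5.9% of all genes), with a median of 0.02 in lymphomas and -0.43 at 24 days.

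Slc7a8, Extl3, Rnf144b, Pla2g2d and Cfb shared a pattern in which wild-type replicates 1 and 2 were high and replicate 3 was not. Slc7a8, a neutral amino acid transporter, read 7.01, 6.94 and 5.14 in the wild-type lymphomas, 4.53, 5.12 and 4.44 in the normal thymocytes, and 3.67 to 4.15 in the 5 deficient samples. Extl3, which starts heparan sulfate chains, read 8.93, 9.0 and 7.05 in the wild-type lymphomas, 7.29, 7.40 and 7.28 in the normal thymocytes, and 5.87 to 6.51 in the deficient samples. Wild-type replicate 3 was thus below all normal thymocytes for Extl3 and level with the highest of them for Slc7a8.

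The difference of Slc7a8 was -1.69 (SE 0.36, adjusted p = 0.0303), kept without wild-type replicate 3 (0.00473) and missed without any other single sample (0.0502 to 0.117). That of Extl3 was -1.63 (SE 0.37, 0.034), kept without wild-type replicate 3 (0.00245) or deficient lymphoma replicate 3 (0.0454) and missed without any other (0.0614 to 0.126). Rnf144b, a ubiquitin ligase, fell by 1.31 (SE 0.26, 0.0246; 0.000291 without wild-type replicate 3); the call was missed without normal replicates 1 or 2 (0.056 and 0.0578), wild-type replicate 2 (0.0606), deficient lymphoma replicates 1 or 2 (0.0519 and 0.0564) or pre-tumor replicate 2 (0.1), and the separation was gone after centring. Pla2g2d, a secreted phospholipase (-1.35, 0.0589; 0.00598 without wild-type replicate 3), and complement factor Cfb (-1.42, 0.295) did not pass; Cfb read 6.46, 9.09 and 4.56 in the wild-type lymphomas.

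Csnk1e, Cacna1c, Rsrp1 and Acp2 were lower in deficient samples, with wild-type lymphomas between them and normal thymocytes. Csnk1e, casein kinase 1 epsilon of the circadian clock, read 8.68, 8.56 and 8.57, then 7.16, 7.24 and 7.26, then 6.44, 6.55 and 6.71, and 7.02 and 6.49, from normal to pre-tumor in the order used above, and fell by 1.25 (SE 0.10, adjusted p = 0.00229). Cacna1c, a voltage-gated calcium channel, fell by 1.18 (SE 0.18, 0.0125; 0.0559 without pre-tumor replicate 2). Rsrp1, an arginine- and serine-rich protein, fell by 1.11 (SE 0.06, 0.000613), and Acp2, lysosomal acid phosphatase, by 1.03 (SE 0.11, 0.0042). Sema4a, a semaphorin (-1.14, 0.0634; 0.0168 without deficient lymphoma replicate 3), and Gdpd3, a phosphodiesterase of lysophospholipids (-1.12, 0.0679; 0.0222 and 0.0408 without deficient lymphoma replicates 1 and 3), did not pass.

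Cd74, the invariant chain of MHC class II, marks antigen-presenting cells. It read 8.19, 8.20 and 7.66 in the normal thymocytes, 7.66, 7.45 and 7.06 in the wild-type lymphomas, 6.24, 5.89 and 5.57 in deficient lymphomas, and 6.80 and 6.92 in pre-tumor thymocytes, and fell by 1.32 (SE 0.18, adjusted p = 0.00819). Of 12 measured dendritic cell and class II genes 3 fell (25%, beside 5.9% of all genes), Cd74 and the class II chains H2-Aa (-1.31) and H2-Ab1 (-1.29), and the summed linear level of the list was 990 to 1384 in the normal thymocytes, 742 to 984 in the wild-type lymphomas, 458 to 593 in deficient lymphomas and 555 to 662 in pre-tumor thymocytes. In these bulk samples fewer cells of a type and less RNA per cell cannot be told apart, and the part of such cells in the other differences was not tested. Elane, neutrophil elastase, separated by 0.000315 with a difference of -0.49 (0.11; 0.0373 without wild-type replicate 3), and not after quantile normalization.

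The summed level of the 12 neutrophil markers ran from 410 to 630.0 in the normal thymocytes, 216 to 1454 in the wild-type lymphomas, 215 to 1118 in deficient lymphomas and 197 to 200 in pre-tumor thymocytes, and none passed. For the 17 macrophage and monocyte markers it was 683 to 834, 479 to 2804, 348 to 800 and 385 to 568, in the same order; C1qa and C1qc fell (11.8%, beside 5.9% of all genes), and 1 gene was at the floor on every array. In both lists the lymphoma ranges overlap.

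Other lists had called members but 0 separated ones, where 0.356% of all genes separated higher and 0.612% lower. Of 41 ribosome biogenesis and metabolic genes known to be induced by MYC, 26 rose (63.4%, beside 5.36% of all genes) and 0 fell (median 0.73), with increases in Npm1 (2.02), Dkc1 (2.09) and Polr1b (1.03), and the list's median was 0.24 in lymphomas and 1.11 at 24 days. Of 32 S phase genes 8 rose (25%) and of 23 mitosis genes 7 rose (30.4%), with 0 falling in either. The S phase median was 0.16 in lymphomas and 0.33 at 24 days, and the mitosis median 0.04 and 0.70. Of 15 double-positive thymocyte genes 5 fell (33.3%, beside 5.9% of all genes), with a median of 0 in lymphomas and -1.90 at 24 days. The Myc probe set fell by 1.32 (SE 0.17, adjusted p = 0.00796), with differences of -0.621 in lymphomas and -2.025 at 24 days. It read 7.77 to 8.13 in the normal thymocytes, 4.83 to 5.62 in the wild-type lymphomas, 4.29 to 4.93 in deficient lymphomas and 5.87 in both pre-tumor samples. The sides overlap, since both pre-tumor samples lay above the wild-type lymphomas. The sources used here do not say if the probe set also reads the transgene.

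**Figure D4:**
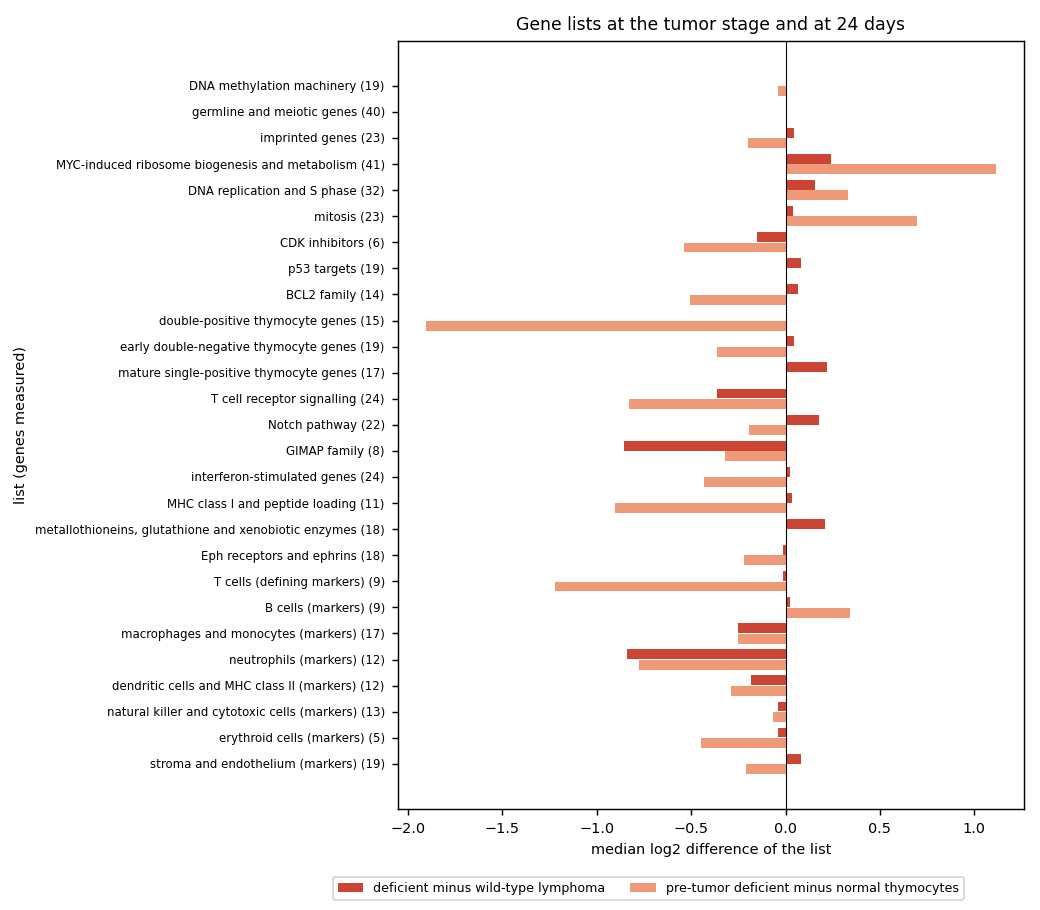
Bars give the median log2 difference of each of 27 gene lists between deficient and wild-type lymphomas (red) and between pre-tumor deficient and normal thymocytes (orange), with the number of genes measured in brackets. The MYC-induced list has medians of 0.24 and 1.11, T cell receptor signalling -0.36 and -0.83, and the GIMAP family -0.86 and -0.32.

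In the DNA methylation machinery, 19 genes were measured, and Dnmt1 was the 1 that separated (5.26%, beside 0.356% of all genes separated higher). In the deficient-minus-proficient comparison 4 rose (21.1%, beside 5.36% of all genes) and 1 fell (5.26%, near the 5.9% of all genes). Besides Dnmt1, Hells, a chromatin remodeller needed for methylation, rose by 1.77, the thymine glycosylase Mbd4 by 0.56 and the methyl-CpG binder Zbtb38 by 0.21, while Mbd1 fell by 0.35. In lymphomas alone these differences were 0.17, 0.28, -0.32 and -0.10, and none passed there.

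Start-site windows were found for 64 of the 72 higher and 103 of the 126 lower genes, and for 15563 genes of the array. The median number of CpG was 24 in the higher, 22 in the lower and 16 in all genes. A CpG ratio over 0.6 was found in 79.7%, 73.8% and 55.1%. The motif CACGTG, which reads the same on both strands, holds a CpG and is bound by MYC and its partners among others, was present in 15.6% (10 genes), 7.77% (8 genes) and 9.52%. Where a gene has several windows the highest count was taken. Among genes with 1 window the medians were 24 in the higher, 20 in the lower and 15 in all genes. In the same order, a CpG ratio over 0.6 was found in 75.5%, 70.4% and 51.8% of these, and CACGTG in 15.1%, 6.17% and 8.29%. Separated genes had a median level of 6.32 (higher) and 6.65 (lower), beside 4.83 over all probe sets with 1 symbol; the part of expression level in the CpG counts was not tested.

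**Figure D5:**
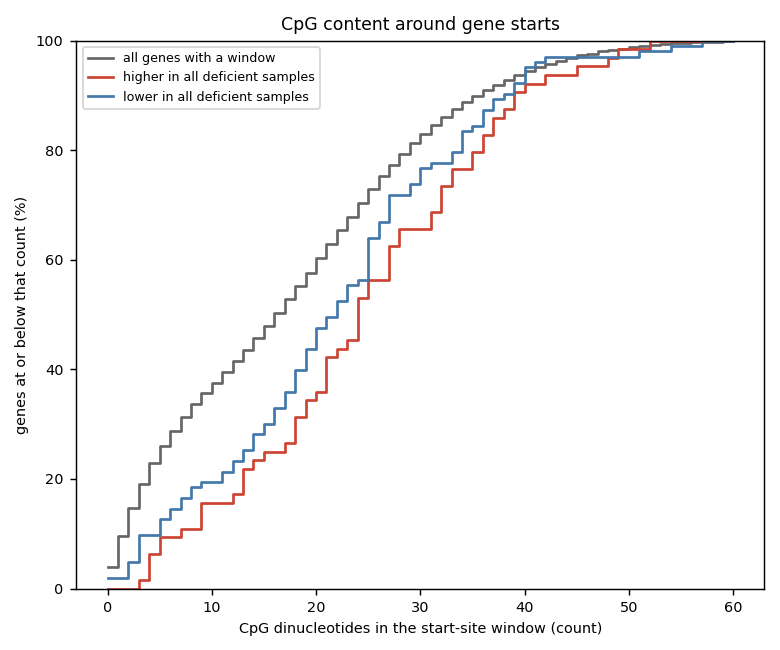
The share of genes (vertical, percent) whose start-site window holds at most the number of CpG on the horizontal axis, for all genes with a window (grey) and for the separated genes that were higher (red) or lower (blue) in deficient samples. Both coloured lines lie to the right of the grey one over most of the range, with medians of 24 and 22 against 16.

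Of the separated probe sets, 14 of 74 higher ones (18.9%) and 11 of 132 lower ones (8.33%) lie on chromosome 2, which holds Dnmt3b, beside 8.45% of all probe sets with 1 symbol. Qser1 and Zfp971 are among the higher and Acp2 and Gata3 among the lower.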

How the data were processed

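RNA of 11 samples was measured on Affymetrix whole-transcript arrays from 300 ng of total RNA, per the labels' protocols. The deposited log2 values were made by the authors with Partek and RMA, per the submitters' processing notes, without versions or order of steps; no scanner files were used. The floor limits how far a fold change can be read.

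Of 35512 probe sets, 6573 with the lowest ID numbers and no annotated gene were left out. Of the 28939 tested, 21789 have 1 symbol in the platform annotation, 1621 several and 5529 none; 4768 are at the floor on every array. limma 3.58.1 (R 4.3.3) fitted 1 mean per group over all 11 samples, without a trend; the method was tested on simulated data. Groups come from sample titles, and the labels call the samples biological replicates. The number of arrays limits the precision.

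The members and lists were chosen with earlier results of these data known. The comparisons within a side were added after the values were seen. Named genes are the 3 methyltransferases, Myc and Ment; among separated genes the 12 largest differences and 6 widest gaps per direction, leaving out predicted, small RNA and receptor-segment genes; those called in both comparisons; up to 4 separated members per list; and 3 genes on each side of the rule. Other list members were chosen after their values were seen. Alternatives were each sample left out, the replicate number as a block, quantile normalization, centring, filters on dim probe sets, a variance trend, other group weights, a 2-group fit and minimum sizes.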

Additional observations from a re-analysis of the deposited data

Results flagged for a closer look

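In 7 named genes the lymphoma difference and the 24-day difference were not alike, by the limma test of one minus the other; 2381 of all probe sets passed this test (8.23%). Mt1 differed by -3.99 (adjusted p = 0.0112), the difference at 24 days being the larger, and Rdx by -1.43 (0.0397). Csnk1e differed by 1.19 (0.0194), Cacna1c by 1.67 (0.0386), Ifnz by 0.84 (0.008) and Rsrp1 by 0.96 (0.0112). In each the deficient-minus-proficient difference was more negative at 24 days than in lymphomas. Gimap7 differed by -0.98 (0.0468), its lymphoma difference of -1.50 being the larger beside -0.52 at 24 days. Without each sample in turn, the calls of Mt1, Ifnz and Rsrp1 held. That of Csnk1e was missed without wild-type replicate 1 (0.0525). Rdx kept its call only without wild-type replicate 2 (0.0379), Gimap7 only without deficient lymphoma replicate 1 (0.0295), and Cacna1c only without normal replicates 1 (0.0215) or 3 (0.0417). No group holds 4 samples, so no sample was tested as standing apart from its group.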

How the results depend on the processing

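The deficient-minus-proficient count of 2901 became 494 at a difference of at least 1, 4396 without the dimmer probe sets and 2 in the 2-group fit, and ran from 802 to 3303 without each sample. The lymphoma count of 2 became 1 at a difference of at least 1, after quantile normalization or with a trend, 6 after centring, 7 without probe sets at the floor on every array and 13 without the dimmer ones; without each sample it ran from 1 to 88, highest without wild-type replicate 3 and deficient lymphoma replicate 1 (82). The 24-day count of 5662 became 2486 at a difference of at least 1, and ran from 1712 (without pre-tumor replicate 2) to 5636. The count for the difference between them, 2381, became 1397 at that size, 3811 without floor probe sets and 3972 without the dimmer ones, and ran from 332 to 2936. Wild-type lymphoma against normal, 5755, became 2408 at that size and ran from 3664 to 5707. Deficient lymphoma against pre-tumor, 20, became 8 at that size, 9 after quantile normalization and 2 without the dimmer probe sets, and ran from 8 to 118. The 206 separated probe sets became 5 at a gap of 0.5, and between 223 and 574 without each sample, since a smaller set of samples separates more easily; quantile normalization gave 247, of which 156 were among the 206, and centring 228, of which 160 were.

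Centring moved the split of higher and lower calls at 24 days from 2804 and 2858 to 3366 and 2450, and that of the difference between comparisons from 1175 and 1206 to 1057 and 1928. The difference of Dnmt3a ran from -0.3362 (without wild-type replicate 2) to 0.0105 (without wild-type replicate 3), where its sign turned. The Dnmt3b difference in the permutation test stayed between -0.17 and -0.06 without each sample. Same-numbered samples did not deviate together in most group pairs (correlations of deviations from -0.33 to 0.32), so the replicate numbers are not taken to pair samples. With the replicate number as a block, the counts were 720 for deficient minus proficient, 1 in lymphomas, 3269 at 24 days, 147 for the difference between them and 4 for deficient lymphoma against pre-tumor. The causes were not tested. Groups of 2 or 3 arrays limit all of these counts, and levels below the floor cannot be read.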
